A study of Mus musculus with 4 samples.

Results

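The RNA polymerase III genes of this count series were 6 named features out of 1517, taken by symbol from all 4 tables. They comprise 4 genes of the machinery (Polr3e, Gtf3c4, Gtf3c6 and Maf1) and 2 RNAs that the enzyme makes (Rn7sk and Rpph1). The libraries were made from total RNA, depleted of ribosomal RNA, of the mouse embryonic stem cell line V6.5 at passage 3, with 2 libraries from cells transfected with a hairpin against GFP (shGFP) and 2 from cells transfected with one against NCAPH2 (shNCAPH2), a subunit of the chromosome-organising complex condensin II. Both groups had been under puromycin at 2 µg/mL for 5 days and were freed of feeder fibroblasts before harvest. Separate cultures for the libraries of 1 group are not stated, so every p-value measures spread between libraries that may be technical. The labels name no clone. Ncaph2 was not analysed here, and its knockdown is taken from the labels.

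RNA polymerase III makes short untranslated RNAs, among them transfer RNAs, 5S ribosomal RNA, the 7SK RNA and the RNA of RNase P. At tRNA genes the factor TFIIIC binds promoter elements inside the transcribed part, the A and B boxes, and brings in TFIIIB and then the polymerase, while 7SK and RNase P RNA genes use elements upstream of their start. Maf1 represses the enzyme when growth conditions are poor. In yeast, condensin is found at tRNA genes and other sites bound by TFIIIC.

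The sequences shown are a polymerase III gene next to Polr3e, the 5′ end of 7SK, and the bases of Rpph1 that no other annotated exon shares. The stretch upstream of Polr3e (chr7:120917528-120917743, plus strand, RefSeq on GRCm38.p6, up to its first GENCODE exon) is shown because it runs into a polymerase III gene. Its first 71 bases, in capitals, lie inside the RefSeq tRNA gene n-TLaag4 (chromosome 7, 120917517 to 120917598, 82 bases), which ends 179 bases before the RefSeq start of Polr3e. The first 100 of 331 bases of Rn7sk (chr9:78175534-78175633, minus strand, GENCODE M21 on GRCm38) are shown with the motif GATC in capitals, which occurs 3 times in the whole RNA. They are shown because HEXIM proteins bind a hairpin near this end of 7SK that holds copies of this motif. Of the 319 bases of Rpph1, positions 36 to 268 (233 bases) lie in a UTR exon of Ccnb1ip1 on the same strand. Shown, with no capitals, are the 35 bases before it (chr14:50807733-50807767, minus strand, GENCODE M21) and the 51 after it (chr14:50807449-50807499), which lie outside that exon.
Polr3e upstream: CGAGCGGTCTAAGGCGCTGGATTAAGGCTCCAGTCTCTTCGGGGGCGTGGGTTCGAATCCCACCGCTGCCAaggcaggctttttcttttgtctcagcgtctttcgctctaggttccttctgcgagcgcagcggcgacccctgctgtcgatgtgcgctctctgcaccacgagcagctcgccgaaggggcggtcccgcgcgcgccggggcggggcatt
Rn7sk: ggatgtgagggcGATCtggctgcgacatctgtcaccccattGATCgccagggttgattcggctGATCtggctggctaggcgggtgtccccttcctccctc
Rpph1 before the shared exon: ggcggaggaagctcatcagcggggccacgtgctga
Rpph1 after the shared exon: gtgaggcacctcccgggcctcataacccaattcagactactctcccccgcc

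The capitals upstream of Polr3e hold 1 match to the B box, GGTTCGAATC, whose first base is 201 bases before the start. The motif searched was GGTTCGA followed by any base and TC, on both strands. It occurred in 24 of 32851 RefSeq promoter windows of 300 bases (0.0731%), and 10 windows (0.0304%) overlapped a RefSeq tRNA gene. Of 942 listed symbols with a window, Polr3e was the 1 whose window overlapped a tRNA gene. Windows were at hand for 3 members, Polr3e, Gtf3c4 and Gtf3c6, and not for Maf1, Rn7sk and Rpph1. The other motifs searched on both strands were TATAA (in 24.9% of windows), the octamer ATTTGCAT (1.74%) and ACCNTAA, the core of the proximal sequence element (6.98%). Gtf3c6 held ACCCTAA 93 bases before one of its RefSeq starts and TATAA on the opposite strand 191 bases before it. The 4 motifs overlapped nowhere in these windows. A match is a string of letters and was not tested as a bound site.

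The named features of a library together held 507891 and 429907 counts with the GFP hairpin, against 243628 and 272426 with the NCAPH2 hairpin. Each of the 1517 features had a lower summed count under shNCAPH2, and the highest kept 67.8% of its shGFP count, so a lower count is a property of the listed features and not evidence of a loss. The median feature kept 46.7%. The 922 features under 50 summed shGFP counts kept a median of 35.4%, and the 595 others 57.4%. Of 10 embryonic stem cell markers 5 were listed, summing to 2259 and 2432 counts under shGFP and 1577 and 1289 under shNCAPH2. Nanog supplied 2114 and 2345 of these against 1530 and 1243 and kept 62.2%. The others were lower in count and kept 61.1% (Sox2), 40.4% (Zfp42), 35% (Pou5f1) and 4.17% (Esrrb, 11 and 13 against 0 and 1 counts). Of 15 fibroblast markers 1 was listed, Igfbp7, at 58 and 65 against 32 and 29 counts. The part of cell makeup in the results below was not tested. In RNA from many cells, fewer cells of a type and less RNA per cell cannot be told apart.

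Polr3e, which had the most counts of the machinery genes, kept a small share of them under shNCAPH2, a difference that did not pass the test. It encodes the RPC5 subunit of the polymerase (chromosome 7, 120917744 to 120947432). Polr3e had 21 and 16 counts in the shGFP libraries and 2 and 3 in the shNCAPH2 libraries. Both shNCAPH2 libraries lay well below both shGFP libraries. In counts per 1000000 counts of the named features of that library (CPM), these were 41.3 and 37.2 against 8.21 and 11.0, and the groups still did not overlap. Polr3e kept 13.5% of its shGFP count (exact 95% interval 4.15% to 34.5%, counting error only), and 11.9% of the named features kept less. In the edgeR quasi-likelihood test its log2 fold change relative to the typical tested feature was -2.02 ± 0.55 (SE), which did not pass (adjusted p = 0.146, unadjusted p = 0.00424, n = 2 in each group). A value of 0 on this scale means the loss of a typical tested feature, not an equal count. The value was negative under each of 12 settings that tested it, from -1.80 to -2.21 without 1 library. As the groups did not overlap in CPM, leaving out 1 library could hardly change the sign and adds no support. Polr3e did not pass in DESeq2 (adjusted p = 0.998), limma voom (adjusted p = 0.465) or the edgeR exact test (adjusted p = 0.0545). With all libraries given an equal size it passed (-2.83 ± 0.45, edgeR adjusted p = 0.0286), in a fit that called 30.6% of its features lower and moved the median of all features to -0.84. Equal sizes without the filter on low counts called 0 of 1517 features, Polr3e included, with 732 of them, Polr3e among these, under an unadjusted p of 0.05.

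Gtf3c4, the TFIIIC subunit TFIIIC90, which has histone acetyltransferase activity (chromosome 2, 28822299 to 28840360), had 6 and 4 counts under shGFP and 0 and 2 under shNCAPH2. It kept 2 of 10 counts (exact 95% interval of the kept share 2.13% to 93.9%). In CPM the values were 11.8 and 9.30 against 0 and 7.34, with no overlap of the groups. The gap between 9.30 and 7.34 came from 4 and 2 counts. Its start lies head to head with that of Ddx31, a helicase gene on the opposite strand, 46 bases away. Ddx31 was listed too, at 10 and 3 counts under shGFP against 1 and 3 under shNCAPH2, and its groups overlapped.

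Gtf3c6, a small TFIIIC subunit (chromosome 10, 40249203 to 40257665), had 8 and 3 counts under shGFP and 2 and 2 under shNCAPH2. In CPM the 4 values were 15.8 and 6.98 against 8.21 and 7.34. Here shGFP replicate 2 was lowest of all and the groups overlapped. It kept 36.4% (exact 95% interval 8.44% to 123%), so neither a loss nor the lack of one could be read at this depth.

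Maf1, the repressor of the polymerase (chromosome 15, 76351294 to 76354380), had 3 and 2 counts under shGFP and 0 and 0 under shNCAPH2. Set against a floor of 3 counts over the shNCAPH2 group, its 5 shGFP counts were 1.67-fold higher without scaling. This takes the 5 counts as exact. The exact interval of its kept share reached 109%, so no lower bound on a loss can be given. The same 4 counts occurred in 17 other named features.

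Of the 4 machinery genes, Polr3e was the 1 with enough counts for the filter on low counts, through its shGFP libraries alone (21 and 16 counts, against 2 and 3). The others were fitted without that filter, together with all 1517 named features. There Gtf3c4 had a log2 fold change of -1.31 ± 1.03 and Gtf3c6 one of -0.50 ± 0.84 (SE, edgeR adjusted p = 0.695 and 0.858). Maf1 did not pass either (edgeR adjusted p = 0.407). Without shGFP replicate 1 the value of Gtf3c6 was 0.19. That of Gtf3c4 was -0.44 without shNCAPH2 replicate 1 and -5.10 without shNCAPH2 replicate 2, which leaves a group at 0 counts and a value that depends on the prior count.

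**Figure D1:**
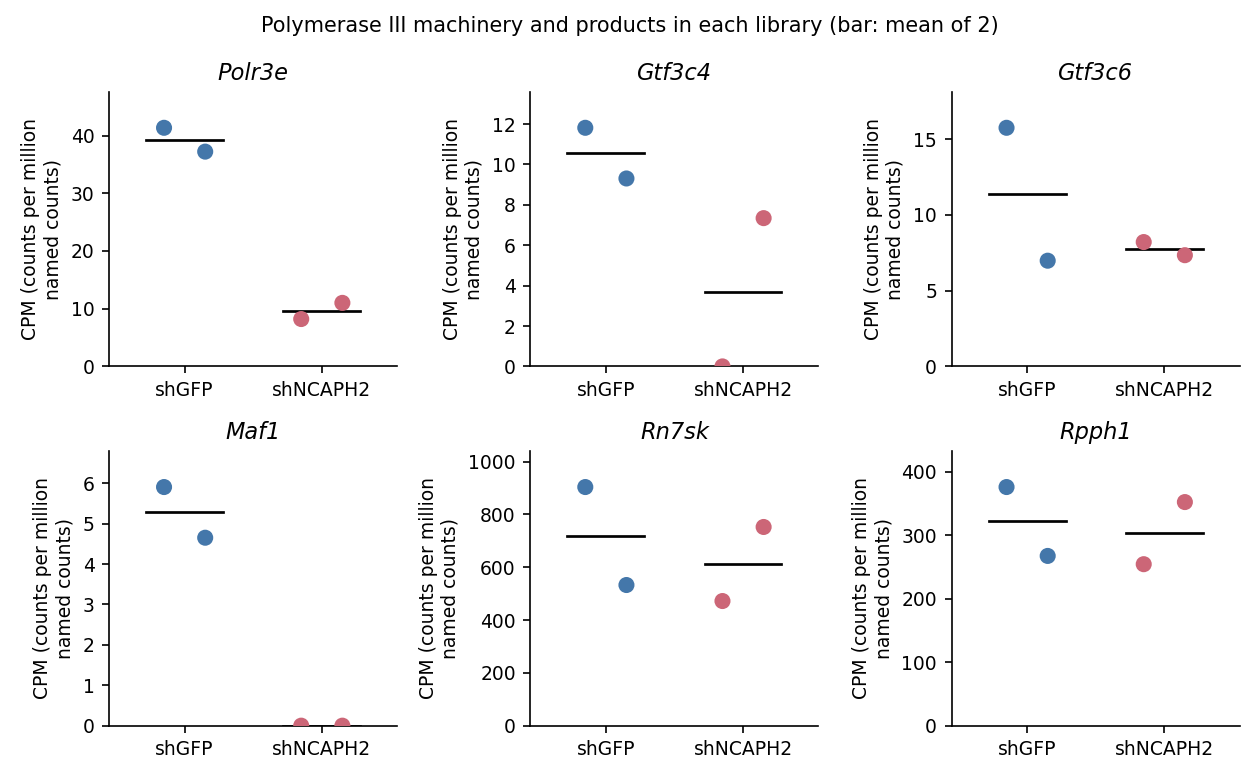
Each panel gives 1 gene as CPM (vertical axis, linear from 0) in the 2 shGFP (blue) and 2 shNCAPH2 (red) libraries, with a bar at the mean. Polr3e sits at 37.2 and 41.3 under shGFP and at 8.21 and 11.0 under shNCAPH2, whereas the points of Rn7sk and Rpph1 from both groups interleave.

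The products stood far above the machinery and lay among the other features in how much they kept. Rn7sk encodes 7SK, which holds the elongation factor P-TEFb inactive with the HEXIM proteins and Larp7 (chromosome 9, 78175303 to 78175633). Rn7sk had 459 and 229 counts under shGFP and 115 and 205 under shNCAPH2. In counts the highest shNCAPH2 library lay just under the lowest shGFP library. Rn7sk kept 46.5% of its shGFP count (exact 95% interval 40.6% to 53.2%, counting error only and not the wider spread of libraries), and 49.5% of the named features kept less. In CPM it was at 904 and 533 under shGFP and at 472 and 752 under shNCAPH2, so that shNCAPH2 replicate 2 was above shGFP replicate 2. Its log2 fold change was -0.26 ± 0.28 (SE) and did not pass (edgeR adjusted p = 0.999). Leaving out 1 library gave -0.59 to 0.15, with a positive value without shGFP replicate 1 (0.15) or shNCAPH2 replicate 1 (0.084).

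Rpph1 is the RNA of RNase P, which trims the 5′ ends of tRNA precursors (chromosome 14, 50807449 to 50807767). Rpph1 had 191 and 115 counts under shGFP and 62 and 96 under shNCAPH2. It kept 51.6% (exact 95% interval 42.3% to 62.8%, counting error only), and 58.8% of the named features kept less. In CPM the values were 376 and 267.5 against 254 and 352, and the groups overlapped. The log2 fold change was -0.12 ± 0.25 (SE, edgeR adjusted p = 0.999). It ran from -0.32 to 0.14 without 1 library, positive without shGFP replicate 1 (0.13) or shNCAPH2 replicate 1 (0.14). As 73.0% of the Rpph1 bases, all but the ends printed above, also belong to an exon of Ccnb1ip1 on the same strand, a read there could be of either gene. Ccnb1ip1 was not analysed here.

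Per kilobase of annotated exon, a scale that adjusts for annotated length alone, Rn7sk had 1387 and 692 counts under shGFP and 347 and 619 under shNCAPH2. Rpph1 had 599 and 361 against 194 and 301. Polr3e, with 5.024 kb of exon, had 4.18 and 3.18 against 0.398 and 0.597. Gtf3c6 reached 2.86 and 1.07 against 0.715 in both shNCAPH2 libraries, Maf1 1.24 and 0.829 against 0, and Gtf3c4 0.830 and 0.553 against 0 and 0.277. Under shGFP, Rn7sk was above Rpph1 and Rpph1 above every machinery gene in both libraries. On these lengths the ranges of Polr3e and Gtf3c6 did not overlap, while those of Gtf3c6 and Maf1, and only just those of Maf1 and Gtf3c4, did. The exon length of Gtf3c6 came from an annotated gene (40247703 to 40258108) wider than the counted feature (40249203 to 40257665). Its values per kilobase may thus be too low, and its place below Polr3e is uncertain. Under shNCAPH2 the ranges of Rn7sk and Rpph1 also did not overlap, and the machinery values rest on 0 to 3 counts each.

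Counted over all 6 members, the shNCAPH2 counts were lower without overlap in 6, against 88.4% of all named features, so the count says nothing particular to them. In CPM 3 members (Polr3e, Gtf3c4 and Maf1) were lower without overlap, against 33.9% of all named features, and 0 were higher without overlap, against 7.51%. The median kept share of the 6 members was 28.2%, or 41.4% with Maf1 at its floor, beside the 46.7% of all named features. The 4 machinery genes among them have under 50 summed shGFP counts, where the median over all such features was 35.4%, against 57.4% for the others. In the filtered fit 3 members were tested and 0 passed, against 1.004% of 896 features called lower. Under an unadjusted edgeR p of 0.05 lay 1 member (Polr3e), against 57 of the 896 features, all lower. Without a filter 0 of 6 passed, against 1.38% of 1517. Again 1 lay under an unadjusted edgeR p of 0.05, against 159 of the 1517, all lower. DESeq2, the exact test of edgeR and limma voom each called 0 of the 3, against 9, 22 and 7 of 896 features.

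**Figure D2:**
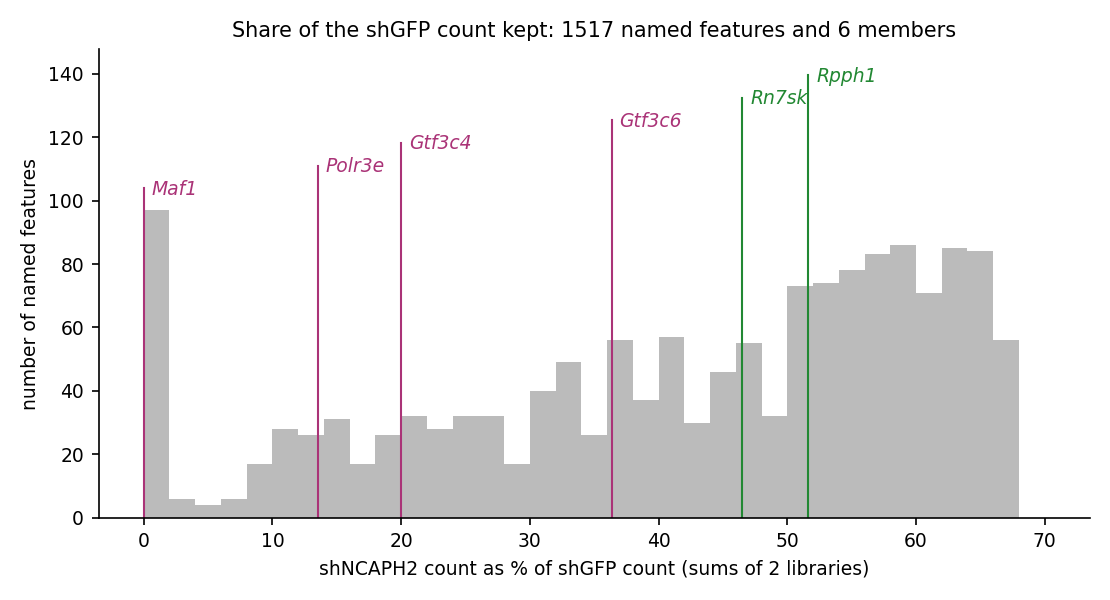
The histogram counts the 1517 named features (vertical axis) by the shNCAPH2 count as a percentage of the shGFP count, summed over 2 libraries each (horizontal axis), and lines mark the 4 machinery genes (purple) and 2 products (green). The machinery genes lie at 0% to 36.4% and the products at 46.5% and 51.6%, in a list that ends at 67.8%.

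Setting machinery against products inside a library needs no scaling between libraries. The 4 machinery genes together had 63 counts under shGFP and 11 under shNCAPH2, and the 2 products 994 and 478. Polr3e supplied 37 of the 63 and 5 of the 11, and Rn7sk 688 of the 994 and 320 of the 478. There were 5.85 and 7.27 machinery counts per 100 product counts in the shGFP libraries and 2.26 and 2.33 in the shNCAPH2 libraries. The mean went from 6.56 ± 1.01 to 2.29 ± 0.0465 (SD, n = 2 each), a ratio of 0.350, with no overlap. The exact two-sided permutation test gave p = 0.333, the smallest that 2 against 2 libraries allow. Polr3e alone had 4.58 and 6.99 counts per 100 Rn7sk counts under shGFP and 1.74 and 1.46 under shNCAPH2. Gtf3c6 on the same scale overlapped between groups, at 1.74 and 1.31 against 1.74 and 0.976. Between the products no shift was seen outside the spread of libraries, with 41.6 and 50.2 Rpph1 counts per 100 Rn7sk counts under shGFP and 53.9 and 46.8 under shNCAPH2 (exact permutation p = 0.667). The machinery genes each have under 50 summed shGFP counts and the products more, and features under 50 kept less in general, as given above. The part of this in the ratio was not tested.

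**Figure D3:**
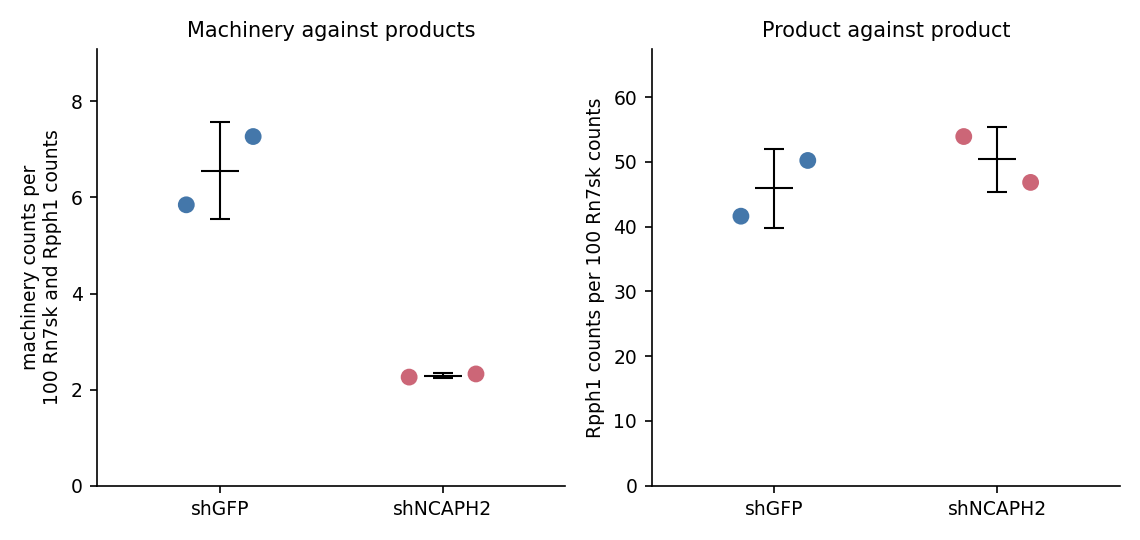
Points are libraries and crosses the mean ± SD of 2, for machinery counts per 100 Rn7sk and Rpph1 counts (left, linear axis from 0) and for Rpph1 counts per 100 Rn7sk counts (right, linear axis from 0). The left ratio is 5.85 and 7.27 under shGFP and 2.26 and 2.33 under shNCAPH2, and the right one overlaps between groups at 41.6 to 53.9.

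The products varied together between libraries of 1 group. Rn7sk was 2.00 times as high in shGFP replicate 1 as in replicate 2, and 1.78 times as high in shNCAPH2 replicate 2 as in replicate 1. For Rpph1 these ratios were 1.66 and 1.55, while the named totals differed by 1.18 and 1.12 times. Among 284 features with 50 or more counts in every library the medians were 1.17 and 1.13. Of these features 3 exceeded Rn7sk in both ratios, the 7SK-like Gm24447 and Gm26315 and the histone gene Hist1h3c, all named after their values were seen. Rpph1 was exceeded in both ratios by 10 of the 284. Which of the paired libraries stands apart cannot be told from 2.

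Annotated copies of 7SK followed Rn7sk from library to library. At 90% identity or more over at least 100 bases, 11 other genes of the annotation matched Rn7sk, and 4 of them were listed. Gm24447 (chromosome 15, 93234363 to 93234700), identical over 241 aligned bases, had 306 and 152 counts under shGFP and 70 and 141 under shNCAPH2. Gm26315 (chromosome 2, 7076094 to 7076414), at 99.6% identity over 238 bases, had 297 and 148 against 65 and 141. These counts are nearly equal in each library although the genes lie on different chromosomes. Gm26035 (chromosome X, 96.1% over 229 bases) had 229 and 120 against 51 and 105 counts, and Gm24146 (chromosome 5, 97.5% over 238 bases) 113 and 78 against 23 and 54. Per 100 Rn7sk counts, Gm24447 stood at 66.7, 66.4, 60.9 and 68.8 over the 4 libraries. Counts of Rn7sk and of these copies are therefore uncertain, since the sources used here do not say how reads that match several genes were handled. None of the 4 copies passed (log2 fold change -0.49 to -0.27, edgeR adjusted p = 0.999 for each), and without shGFP replicate 1 or shNCAPH2 replicate 1 all but Gm24146 turned positive. Gm24146 ran from -1.08 without shNCAPH2 replicate 2 to -0.015 without shNCAPH2 replicate 1. Rpph1 matched Ccnb1ip1 alone, over the 233 bases of the shared exon already described, and the 4 machinery genes matched 0.

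**Figure D4:**
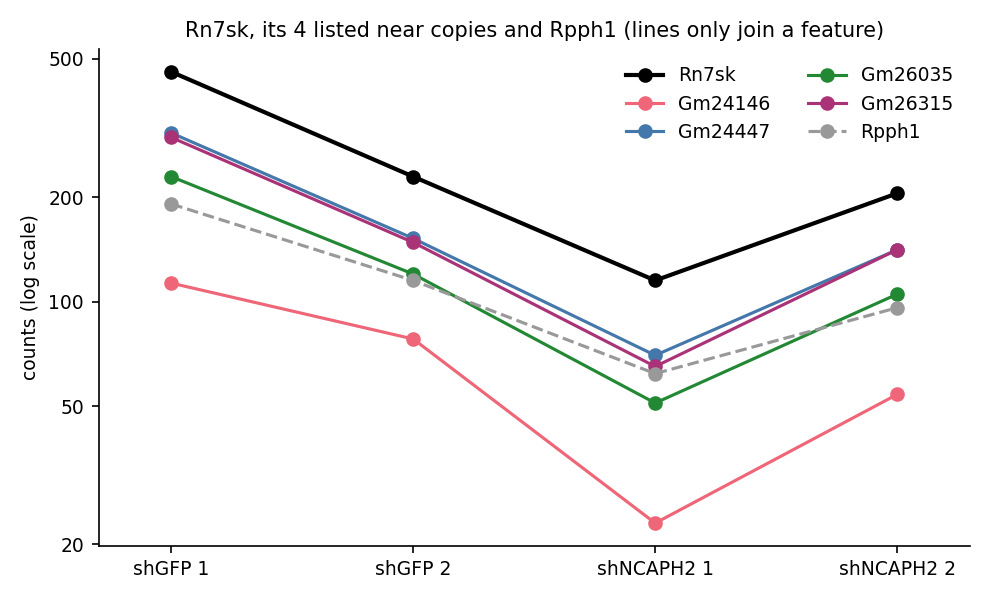
Counts (vertical axis, log scale) in the 4 libraries for Rn7sk (black), its 4 listed near copies (colours) and Rpph1 (grey, dashed), with lines that only join the points of a feature. All 6 features are highest in shGFP replicate 1 and lowest in shNCAPH2 replicate 1, and Gm24447 and Gm26315 nearly coincide (306 and 297, 152 and 148, 70 and 65, 141 and 141).

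Other genes of the pathway were few in the tables. Of 18 core subunits 2 were listed, Polr3e and Polr1d, a subunit that polymerases I and III share. Polr1d had 17 and 16 counts under shGFP and 12 and 6 under shNCAPH2, kept 54.5%, and overlapped between groups in CPM (33.5 and 37.2 against 49.3 and 22.0). Its log2 fold change was -0.044 ± 0.48 (SE) and did not pass (edgeR adjusted p = 0.999). It changed sign with RLE size factors, in DESeq2, without a filter, and without shGFP replicate 2 or shNCAPH2 replicate 2. Of 18 factors 4 were listed, the 3 members and Snapc5, a subunit of the complex that binds upstream elements of 7SK-type genes. Snapc5 had 4 and 6 counts against 0 and 1, kept 1 of 10 counts (exact 95% interval of the kept share 0.230% to 70.3%), and did not pass without a filter (-2.20 ± 1.20, edgeR adjusted p = 0.479). Its value was -1.38 without shNCAPH2 replicate 1, and -5.10 without shNCAPH2 replicate 2, where that group is again at 0 counts. Of 13 product entries 2 were listed, the members themselves. Beyond these entries and near copies of the members, the named features were not searched for other RNAs of polymerase III.

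Partners of the products were compared in the same way. Of 11 proteins of RNase P and the related RNase MRP 0 were listed, so no protein of this list can be set beside Rpph1. Of 7 genes of the 7SK particle and P-TEFb 2 were listed. Larp7, which binds the 3′ end of 7SK, had 26 and 9 counts under shGFP and 4 and 9 under shNCAPH2 (-0.58 ± 0.57 SE, edgeR adjusted p = 0.999). It ran from -1.14 without shNCAPH2 replicate 2 to -0.14 without shNCAPH2 replicate 1. In CPM it was highest in shGFP replicate 1 and next in shNCAPH2 replicate 2 (51.2 and 33.0), then at 20.9 and 16.4, the same order as Rn7sk. These values rest on 26, 9, 9 and 4 counts, and how many other features share the order was not counted. Ccnt1, the cyclin T1 of P-TEFb, had 2154 and 2385 counts against 1452 and 1265 and kept 59.9%. Its log2 fold change was 0.073 ± 0.21 (SE, edgeR adjusted p = 0.999), and it passed as lower with equal library sizes (-0.74, edgeR adjusted p = 0.0331), a direction that scaling sets. Its value also turned negative without shGFP replicate 1 or shNCAPH2 replicate 1.

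Of the other polymerases, Polr1e and Twistnb of polymerase I were 2 of 12 entries listed, at 7 and 8 against 3 and 4 counts and at 4 and 5 against 1 and 2. Neither passed without a filter (edgeR adjusted p = 0.963 and 0.857), and Polr1e turned positive without shGFP replicate 2. Of 8 polymerase II subunits 0 were listed. Rnu1b6, a U1 small nuclear RNA gene and the 1 listed among 10 entries for small RNAs of polymerase II, had 29 and 8 counts against 5 and 9 (-0.55 ± 0.59 SE, edgeR adjusted p = 0.999). Its value was -1.08 without shGFP replicate 2 and -0.22 without shNCAPH2 replicate 1. It too was highest in shGFP replicate 1 and next in shNCAPH2 replicate 2 in CPM (57.1 and 33.0, then 20.5 and 18.6). These listed genes that are not members, the neighbour Ddx31 and the 7SK copies were 12 in all. In edgeR with TMM 0 of 8 tested passed, against 9 of 896 features, and without a filter 0 of 12, against 21 of 1517. At an unadjusted edgeR p under 0.05 there were 0 in both fits, against 57 of 896 and 159 of 1517. DESeq2, the exact test and limma voom called 0 of the 8, against 9, 22 and 7 of 896. With equal library sizes 1 of 6 tested passed, Ccnt1, against 284 of 928 features. Of the 6, 3 were under an unadjusted edgeR p of 0.05, against 491 of the 928. Equal sizes without a filter passed 0 of 12, against 0 of 1517, and 3 were under it, against 732 of 1517.

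**Figure D5:**
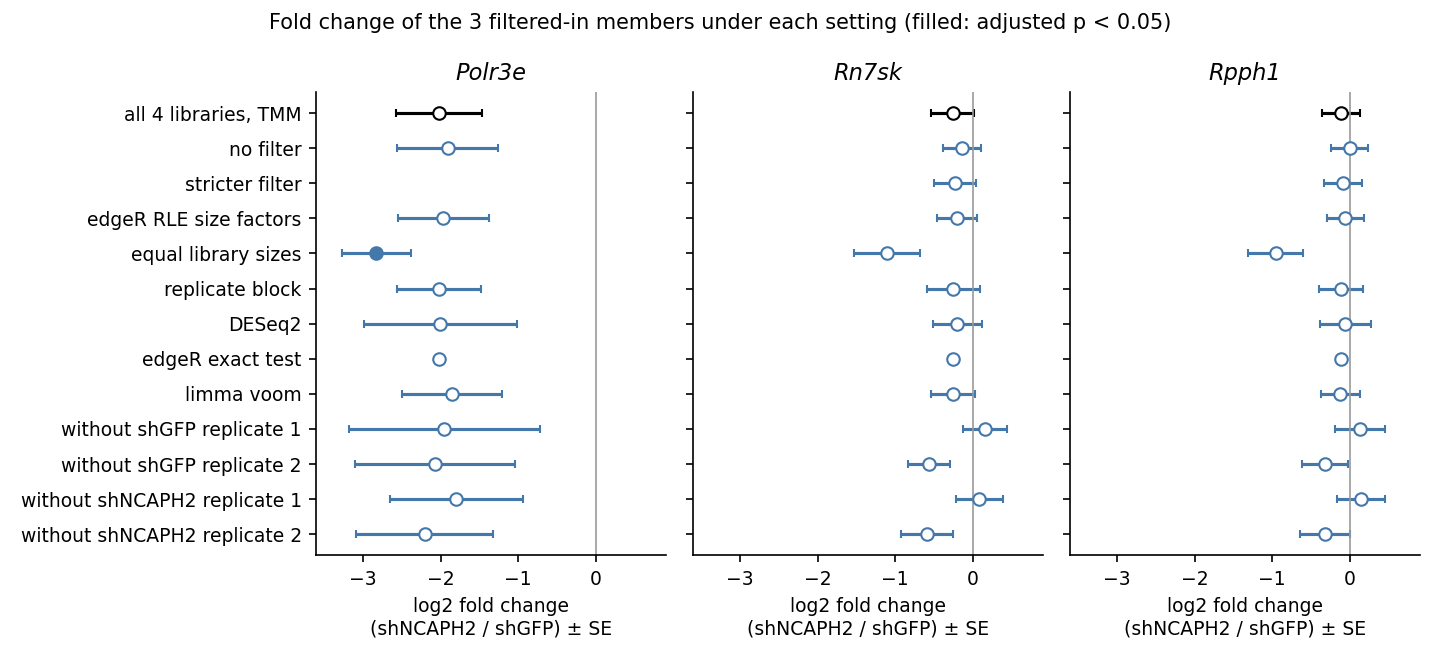
Log2 fold change of shNCAPH2 against shGFP with its SE (horizontal axis) for the 3 members with enough counts, under each setting (rows; the exact test gives no SE, and Polr3e has no value under the stricter filter). Filled points have an adjusted p under 0.05: Polr3e passes with equal library sizes alone, and Rn7sk and Rpph1 cross 0 when replicate 1 of either group is left out.

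The features most like each member were found by the share of a feature's counts that fell in each of the 4 libraries, among features with a summed count of 0.5 to 2 times that of the member. Gene models named only by a Gm or Rik number, and with them the 7SK copies, were left out. The distance is the sum of the 4 absolute differences in share. For Polr3e the nearest of 496 features were Itgb5 (15 and 12 against 1 and 3 counts, distance 0.063), Acp6 (0.071) and Kcnd3 (0.075). For Rn7sk the nearest of 86 were Prss12 (266 and 145 against 75 and 115 counts, 0.050), Dhx32 (0.057) and Esrra (0.11). For Rpph1 the nearest of 121 were the histone genes Hist1h1a (120 and 69 against 45 and 61 counts, 0.038) and Hist1h2an (0.049), then Esrra (0.053). Esrra was thus near both products. The members with few counts had features at a distance of 0. These were Mrpl37 for Gtf3c4 (followed by BC034090 and Aggf1), Rpsa-ps4 and Strn3 for Gtf3c6 (followed by BC055111), and Ap1ar, Cthrc1 and Gkap1, the first by name, for Maf1.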

How the data were processed

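Total RNA of V6.5 cells was sequenced in 2 shGFP and 2 shNCAPH2 libraries. For each, the authors deposited raw counts per feature. TopHat2 2.0.10, edgeR and mm9 appear in the submitters' processing notes without a role. The tables' positions followed GRCm38: 1465 of 1517 named features matched GENCODE M21 by symbol and place, 1276 of them with the same start or end. The counter, its use of strand and the annotation are not given in the sources used here. The tables hold a part of each library, so their sums are not depths.

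The 101 rows without a symbol (22.2% to 23.3% of counts) stayed out of library sizes and tests. Counts were tested with the edgeR 4.0.16 quasi-likelihood test (R 4.3.3, TMM, filterByExpr defaults, group alone), which left 896 features, with Benjamini-Hochberg adjustment over all of them at 0.05. Members below the filter were fitted without it, over 1517 features. SE is the absolute log2 fold change over the root of F. The script was tested on simulated data. Intervals are exact (Clopper-Pearson, 95%) and cover counting error only. Libraries of 1 group differed by more than that. Chi-square per degree of freedom was 18.9 between the shGFP libraries (1034 features) and 10.6 between the shNCAPH2 libraries (698 features). Copies were found with blastn 2.17.0. Alternatives used DESeq2 1.42.0 and limma 3.58.1 among others. Named are the members, listed genes of fixed lists, neighbours within 5000 bases and the 3 features most like each member (Gm and Rik gene models left out). Members, lists and tests were chosen with earlier results of these data known.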

Additional observations from a re-analysis of the deposited data

How the results depend on the processing

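The number of features past the threshold was 9 of 896, and 21 without a filter, 14 with a stricter one, 16 with RLE size factors, 22 with the exact test, 19 at an adjusted p under 0.1 and 284 of 928 with equal library sizes (0 of 1517 where these were used without a filter, with 732 at an unadjusted p under 0.05), or 12 to 18 without 1 library. A replicate block gave 4, and the numbers crossed between groups, added after seeing the data, gave 9. Nothing says that equal numbers share a batch, and same-numbered libraries did not deviate together (r = -0.06 over 896 features, -0.64 over the 243 features whose shGFP counts reached 300 in sum). Over those 243 they deviated in opposite directions, as Rn7sk and Rpph1 did. The coefficient of variation between libraries was 0.126 with the crossed numbers and 0.195 in the main fit. At an unadjusted edgeR p under 0.05, 20 features were higher with the crossed numbers and 0 in the main fit. The cause was not tested. The replicate block changed no call of a member. Of 65 alternative values of members, 59 kept direction and call, 1 passed newly (Polr3e, -2.83 with equal library sizes) and 5 changed sign, all without 1 library (ranges given): Gtf3c6 (-0.87 to 0.19), Rn7sk (-0.59 to 0.15) and Rpph1 (-0.32 to 0.14). The 9 alternatives for machinery per products were all lower under shNCAPH2. Those without 1 library (ratio 0.315 to 0.392) had to be, as the groups did not overlap. The rest were other ratios, among them Gtf3c6 per Rn7sk (0.889), whose groups overlapped, and Maf1 per Rn7sk (0, from 0 counts under shNCAPH2). Of the values of the other named genes 113 kept direction and call and 16 changed sign: Polr1d without a filter (0.071), with RLE (0.013) and in DESeq2 (0.021), Ccnt1 with equal sizes (-0.74), and without 1 library Polr1d (-0.66 to 0.49), Ccnt1 (-0.12 to 0.31), Polr1e (-0.40 to 0.10), Ddx31 (-1.61 to 0.19), Gm24447 (-0.72 to 0.14), Gm26035 (-0.79 to 0.092) and Gm26315 (-0.78 to 0.17). The causes were not tested. Larp7 and Rnu1b6 fell below the filter with equal sizes, and Polr3e below the stricter one. Counts of 0 to 8 in Gtf3c4, Gtf3c6 and Maf1 limit what can be read from them.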

Other observations

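Ccnt1 and Nanog, a pair noticed after the values were seen, had counts close to each other in every library although they lie on chromosomes 15 and 6. Ccnt1 had 2154 and 2385 counts under shGFP and 1452 and 1265 under shNCAPH2, and Nanog 2114 and 2345 against 1530 and 1243. Whether reads are shared between them was not tested.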
